A study of Mus musculus with 4 samples.

Results

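The genes described here are the targets and regulators of ATF4, the transcription factor at the centre of the integrated stress response, in 4T1 cells sorted by mitochondrial membrane potential (MMP). A list of 42 genes was drawn up from their known roles in the pathway, with earlier results of these data known. Each gene was looked up by its current or older symbol. The table held 41 of them among 20197 genes. *Gdf15*, a secreted stress hormone, had no row, and *Mars1* was found under its older symbol *Mars*. By function, the 41 genes are 8 regulators, 6 stress effectors, 9 enzymes of amino acid and one-carbon synthesis, 6 amino acid transporters and 12 cytosolic tRNA synthetases.

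4T1 is a mouse mammary tumor cell line that was grown here in DMEM with 10% FBS, 20 mM Hepes at pH 7.4 and penicillin and streptomycin. All cells, in both groups, were stained with MitoSpy Red CMXRos (20 nM, 30 min), a dye that accumulates in mitochondria according to their membrane potential, and the brightest 5% (high MMP) and the dimmest 5% (low MMP) were collected from a cell sorter. Each group had 2 samples, numbered 1 and 2 in the labels, with 100000 cells per sample and 200 ng of RNA per stranded mRNA library. The study counts the samples of a group as 2 separate experiments or tumors, but neither it nor the labels tie the numbers 1 and 2 to an experiment, so whether same-numbered samples were sorted together is not known.

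ATF4 is made when one of several kinases that sense amino acid shortage, unfolded proteins in the endoplasmic reticulum, missing heme or double-stranded RNA phosphorylates the initiation factor eIF2, which slows translation of most mRNAs but favors that of *Atf4* through upstream open reading frames. Loss of mitochondrial function can also activate this response. ATF4 then binds a short composite element shared by C/EBP and ATF factors and induces genes that import and make amino acids, charge tRNAs and, under prolonged stress, promote cell death.

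That element was searched for as TGATGNAA (TTNCATCA when read on the other strand), on either strand. The search covered RefSeq promoter windows of GRCm38.p6 that run from 250 bases before to 50 bases after the start of each gene. A window was available for 34 of the 42 genes, and 11 of these 34 (32.4%) held the element, against 1219 of all 27025 genes with a window (4.51%) and 257 of 9353 genes averaging 10 or more normalized reads (2.75%). It was found in 5 of 8 tRNA synthetases (62.5%), 2 of 8 regulators, 2 of 6 stress effectors, 2 of 8 synthesis enzymes and 0 of 4 transporters. These windows are promoters only, a match is a description of letters, and elements elsewhere in a gene are not covered. Some of the matches that begin before the gene start are shown 5′ to 3′ on the strand of the gene, with the element in capitals, because they show variants of the element in genes of different function.
*Asns*, chr6:7693214-7693243, minus strand, element starting 23 bases before the gene start: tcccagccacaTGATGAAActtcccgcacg
*Chac1*, chr2:119351038-119351067, plus strand, 193 bases before: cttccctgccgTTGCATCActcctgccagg
*Vldlr*, chr19:27216809-27216838, plus strand, 200 bases before: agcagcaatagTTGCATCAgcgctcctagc
*Nupr1*, chr7:126625562-126625591, minus strand, 110 bases before: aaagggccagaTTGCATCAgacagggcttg
*Pycr1*, chr11:120643833-120643862, minus strand, 103 bases before: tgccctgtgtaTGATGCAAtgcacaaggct
*Gars*, chr6:55037960-55037989, plus strand, 30 bases before: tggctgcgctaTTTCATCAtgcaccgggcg
*Tars*, chr15:11399659-11399684, minus strand, 15 bases before: caggagtcccgTTGCATCAgctggtt
Among those shown, the letters TTGCATCA stood in *Chac1*, *Vldlr*, *Nupr1* and *Tars* and their reverse complement in *Pycr1*, while *Asns* and *Gars* differed at the unspecified base. In *Trib3*, *Yars* and *Iars* the element lay after the gene start.

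The libraries held between 22591970 and 26395015 reads, and 18643 to 18854 genes were above 0 in each. Values are normalized reads (each library scaled to 20000000), hence relative levels, and in bulk RNA fewer cells expressing a gene and less of its RNA per cell cannot be told apart. All 41 genes were among the 12902 that averaged 10 or more normalized reads, called expressed genes here, with 94 to 22786 reads per gene and library. Markers of the line were checked: 5 of 6 mammary epithelial markers were in the table, with summed levels of 36188 to 48361, whereas the 2 leukocyte markers with a row, of 6, summed to at most 2.66 and the 3 endothelial markers, of 4, to at most 12.9. The 4 fibroblast markers with a row, of 5, summed to 337 and 397 in high MMP and to 572 and 622 in low MMP samples. Most of this was *Pdgfra*, with 319 and 363 against 536 and 589. DESeq2 called it (adjusted p = 0.0412) and limma did not, and its part in the results below was not tested. Of the 4 fibroblast markers, 2 had the lower and 2 the higher mean log2 level in high MMP cells.

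Of the 41 genes, none passed an adjusted test between high and low MMP cells in a fit without pairing or with samples paired by number, which with 2 samples per group does not show that their levels were the same. For the 38 whose groups overlapped, the samples of at least 1 group lay further apart than the group means. With 2 samples per group this follows from the overlap itself. The limma test called 0 of 20197 genes at an adjusted p of 0.05 (0%) and 0 of the 41. On simulated data with planted changes, limma also made no calls with 2 samples per group. Its 0 calls therefore cannot tell change from no change. At an unadjusted p under 0.05 limma passed 9.96% of all genes and none of the 41, whose adjusted p-values ran from 0.505 to 0.997. On the recovered reads, edgeR called 0 of all genes (7.05% at the unadjusted threshold) and DESeq2 called 0.584% (3.27% unadjusted), and both passed 1 of the 41, *Chac1*, at the unadjusted threshold and none after adjustment. With the sample number as a block, edgeR called 106 of all genes (0.525%, and 4.55% unadjusted) and limma none (5.22% unadjusted), and neither passed any of the 41 at either threshold. The high and low MMP values overlapped for 38 of the 41, and the 3 whose groups did not overlap, *Chac1*, *Psat1* and *Wars*, were all higher in both high MMP samples. Across the expressed genes, 38% had groups that did not overlap, 14.3% with high above low MMP and 23.7% with high below low.

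The samples in which these genes were high were the same for most of them. For 33 of the 41 (80.5%), high MMP 2 and low MMP 1 were the 2 highest libraries, an order found in 22.7% of expressed genes. The reverse order, with high MMP 1 and low MMP 2 highest, held for 5 genes, *Atf4*, *Ddit3*, *Nupr1*, *Ppp1r15a* and *Ddit4*, and for 22.2% of expressed genes. The same 33 genes were therefore lower in high than in low MMP cells among the samples numbered 1 (pair 1) and higher among those numbered 2 (pair 2), against 27.2% of expressed genes, and the 5 others were higher in pair 1 and lower in pair 2, as were 27.1%. Such differences within a number compare 1 sample with 1 sample and have no replicate check. The genes were chosen with earlier results of these data known, so these counts are no independent evidence. In all, 24 of the 41 were lower by at least 0.2 on the log2 scale in pair 1 and higher by at least 0.2 in pair 2, which held for 7.08% of expressed genes. The median log2 difference over the 41 genes was -0.28 in pair 1 and 0.35 in pair 2, where that of the expressed genes was -0.04 and -0.03. Within the groups, high MMP 1 minus high MMP 2 had a median of -0.29 and low MMP 1 minus low MMP 2 one of 0.35 over the 41 genes, against -0.02 and -0.0018 over the expressed genes.

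Same-numbered samples deviated from their group means in opposite directions, with a correlation of -0.414 across the expressed genes and of -0.913 across the 41 genes, which share the same 4 libraries. The labels do not tell whether the numbers are crossed in one group, and the pair differences hold only for the numbers as given. Taken across the numbers, the median over the 41 genes was 0.06 for high MMP 1 minus low MMP 2 and 0.05 for high MMP 2 minus low MMP 1, with 28 of 41 genes above 0 in each. The median of the group differences over the 41 genes was 0.06, but it was -0.10 without high MMP 2 and -0.14 without low MMP 2, and the median of each function group was also below 0 without either of these samples.

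**Figure D1:**
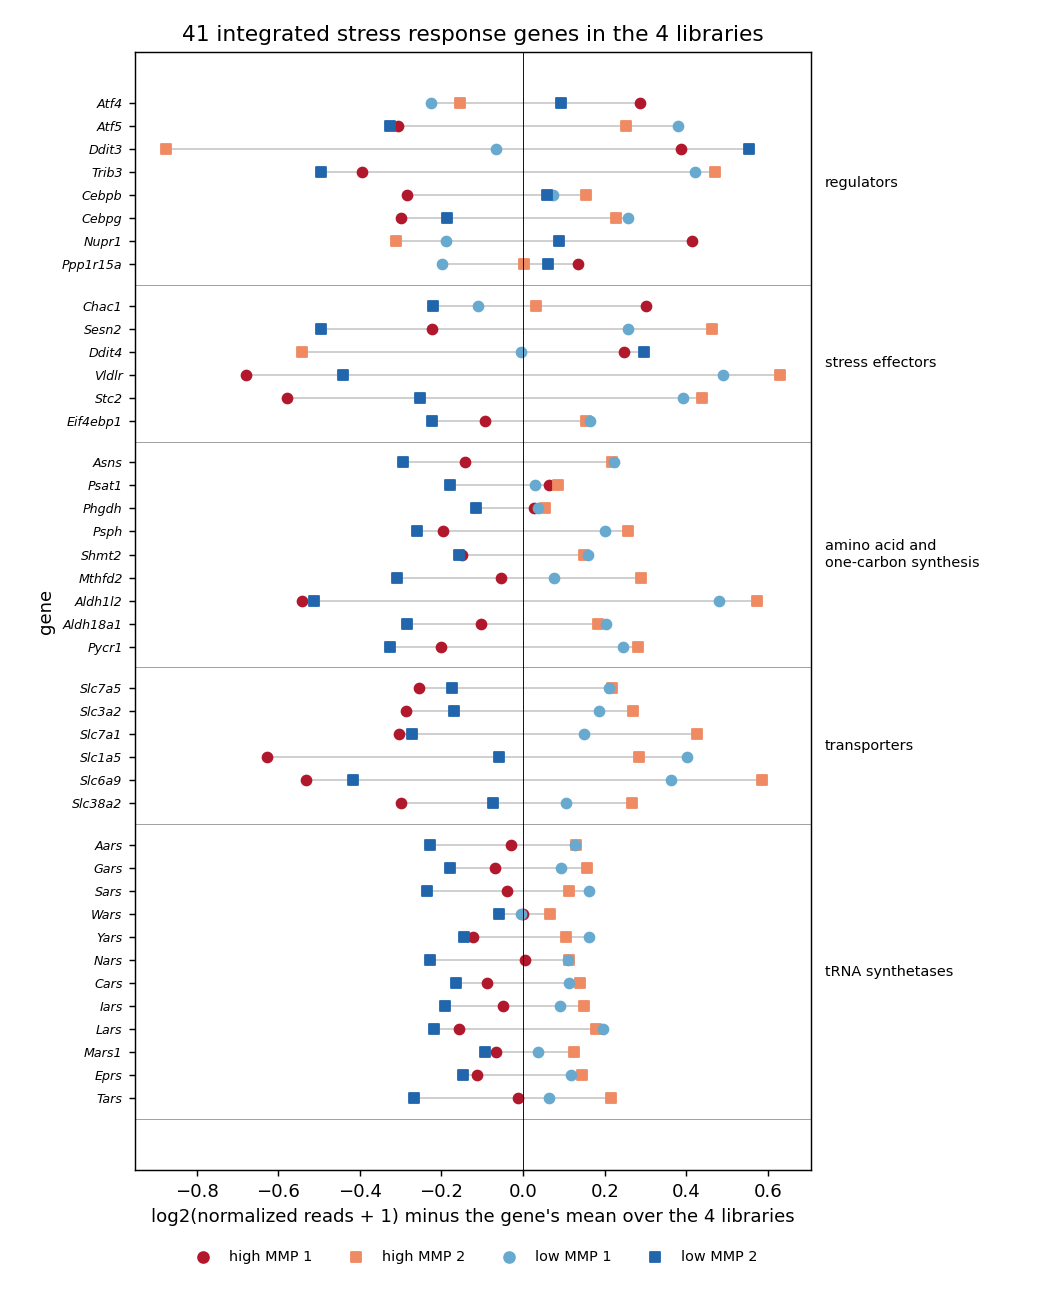
Level of each of the 41 genes in each of the 4 libraries, as log2(normalized reads + 1) minus the mean of that gene over the 4 libraries, grouped by function. For 33 genes the highest 2 values are those of high MMP 2 and low MMP 1, and *Atf4*, *Ddit3*, *Nupr1*, *Ppp1r15a* and *Ddit4* show the reverse.

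The order was nearly the same under other scalings. After median-of-ratios rescaling 32 of the 41 genes were lower in pair 1 and higher in pair 2, *Phgdh* being the one lost with a pair 1 difference of 0.04, and after quantile normalization 34 were, *Psat1* being the one gained at -0.07. Genes with and without the promoter element gave similar counts: high MMP 2 and low MMP 1 were the 2 highest libraries for 9 of 11 genes with it, 17 of 22 measured genes without it and 7 of 8 without a promoter window.

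Among the regulators, *Atf4* itself and its well known target *Ddit3* (CHOP, a pro-apoptotic transcription factor) ran against most of the other genes. *Atf4* (chr15:80255184-80257541, GRCm38) had 10241 and 7539.8 normalized reads in high MMP 1 and 2, and 7181 and 8955 in low MMP 1 and 2. The highest sample was in one group and the lowest in the other, but the groups overlapped. Its means were 8891 ± 1910.3 and 8068 ± 1254 (SD, n = 2), and the log2 difference of 0.13 (SE 0.21) did not pass the limma test (adjusted p = 0.922). *Ddit3* (chr10:127290774-127296288), with 94 to 251 reads the least deeply covered of the 41 genes, had 190.2 and 78.7 normalized reads in high MMP and 139 and 213 in low MMP samples. High MMP 2 stood lowest, and its gap to high MMP 1 exceeded that between the group means, 134 ± 78.9 and 176 ± 52.8 (SD, n = 2; log2 difference -0.49, SE 0.50, limma adjusted p = 0.851). Exons of *Ddit3* overlap another gene model of the same name, *Gm4189* and *Mars1*. Its reads may therefore be shared or lost in counting, which was not tested.

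*Trib3*, a pseudokinase induced by ATF4 and CHOP that restrains ATF4 activity, showed the majority order most clearly among the regulators. Its levels were 1589.7 and 2895 in high MMP 1 and 2, and 2801 and 1484 in low MMP 1 and 2. High MMP 2 and low MMP 1 lay close together, as did the other two samples, and the group means of 2243 ± 923 and 2142 ± 931 (SD, n = 2) differed by 0.07 on the log2 scale (SE 0.44, limma adjusted p = 0.994). *Atf5*, a relative of ATF4 that is also controlled by upstream open reading frames and acts in the mitochondrial stress response, had 2155 and 3174 in high MMP and 3470.5 and 2128 in low MMP samples. Again the same 2 samples were high, and the difference between groups was -0.06 (SE 0.32, adjusted p = 0.994 with limma).

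*Ppp1r15a*, which encodes GADD34, the subunit that directs the phosphatase to eIF2 and so ends the response, had 693 and 632 in high MMP and 550.1 and 659 in low MMP samples (log2 difference 0.14, SE 0.13). *Cebpg*, a partner of ATF4 in its dimers, and *Cebpb*, a related C/EBP factor, had group differences of -0.07 and -0.13, and *Nupr1*, a stress-induced chromatin protein, one of 0.10. As a group the 8 regulators split evenly: 4 had high MMP 2 and low MMP 1 as the 2 highest libraries, 4 had the reverse, 4 had the higher mean in high MMP cells, and the median difference was 0.01, with medians of -0.01 in pair 1 and 0.02 in pair 2. *Cebpb*, *Cebpg* and *Nupr1* are named outside the rule for named genes, after their values were seen, as are *Vldlr*, *Stc2*, *Eif4ebp1*, *Psph*, *Shmt2*, *Slc38a2*, *Aldh1l2*, *Pycr1*, *Wars*, *Mars1*, *Atf3*, *Slc7a11*, *Pck2*, *Fos* and *Fosb*.

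**Figure D2:**
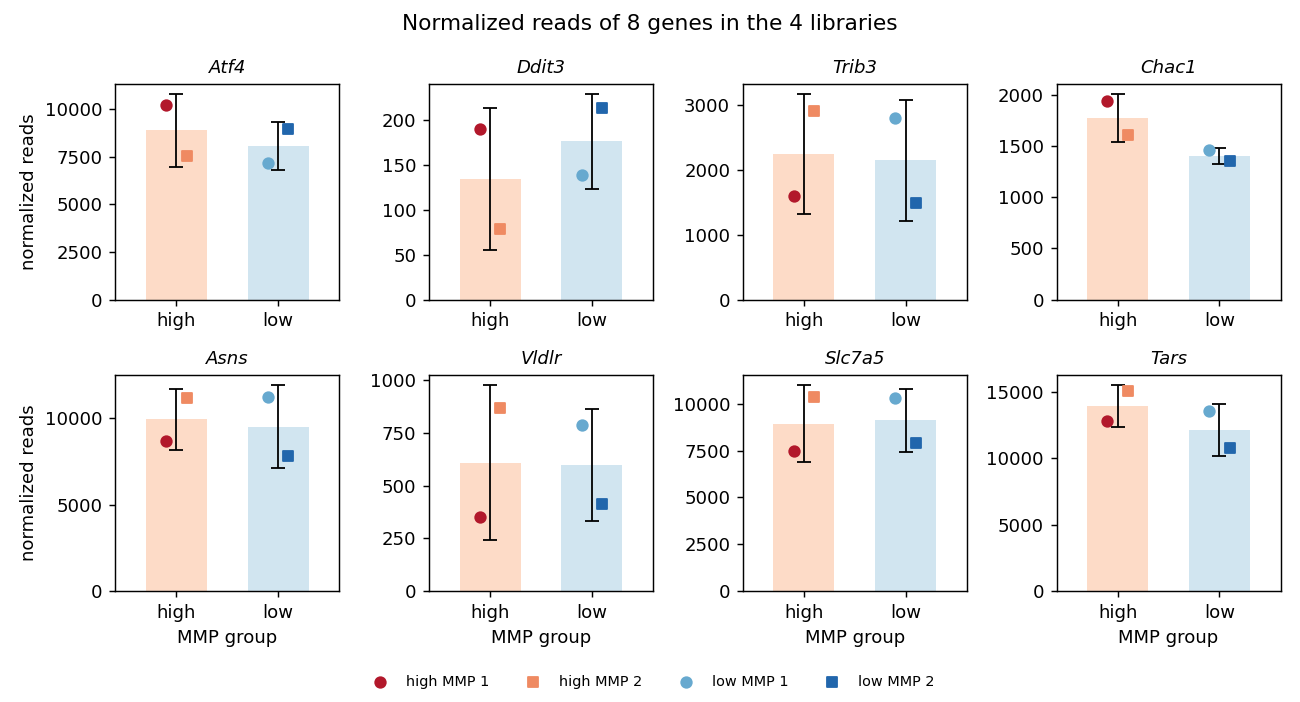
Normalized reads of *Atf4*, *Ddit3*, *Trib3*, *Chac1*, *Asns*, *Vldlr*, *Slc7a5* and *Tars*, with bars for the group mean, error bars for the SD (n = 2) and a point for each library; every vertical axis starts at 0. *Chac1* is the gene whose high MMP points both lie above both low MMP points, and in the others the points of the 2 groups overlap.

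The stress effectors held the gene closest to a difference between groups. *Chac1* (chr2:119351229-119354381), an enzyme that degrades glutathione, had 1942 and 1609 normalized reads in high MMP and 1459 and 1351 in low MMP samples. Both high MMP samples were above both low MMP samples, and the log2 gaps between replicates, 0.27 and 0.11, were smaller than the difference between the groups. The means were 1776 ± 235 and 1405 ± 76.7 (SD, n = 2), with a log2 difference of 0.33 (SE 0.12). Its unadjusted p was 0.0514 with limma, 0.0343 with edgeR and 0.0223 with DESeq2, and the adjusted values were 0.505, 0.689 and 0.670. It was called in 1 fit, edgeR with a block that paired high MMP 1 with low MMP 2 and high MMP 2 with low MMP 1, which was chosen after seeing the data and called 3.63% of all genes.

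The other 5 measured effectors did not keep this order. *Ddit4* (REDD1, an inhibitor of mTORC1) had 3457 and 2002 in high MMP and 2904 and 3578 in low MMP samples, so that high MMP 2 was the lowest library, and the difference was -0.29 (SE 0.30, limma adjusted p = 0.850). *Sesn2*, a leucine sensor upstream of mTORC1, had 687 and 1105 in high MMP and 958 and 568 in low MMP samples, with high MMP 2 the highest (0.24, SE 0.36, limma adjusted p = 0.913). Both genes restrain mTORC1, and they had opposite signs in each pair, 0.25 and -0.84 for *Ddit4* and -0.48 and 0.96 for *Sesn2*.

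*Vldlr*, a lipoprotein receptor, had 349 and 867 normalized reads in high MMP 1 and 2 and 786 and 412 in low MMP 1 and 2. Its highest and lowest libraries were both high MMP samples, 2.48-fold apart, while its group means of 608 ± 366 and 599 ± 265 (SD, n = 2) were nearly the same. *Stc2*, a secreted glycoprotein, and *Eif4ebp1*, a repressor of cap-dependent translation, had high MMP 2 and low MMP 1 highest as well, with pair differences of -0.97 and 0.69 and of -0.26 and 0.38. Over the 6 effectors the median difference was 0.01, and the highest library exceeded the lowest by 1.31-fold to 2.48-fold, with a median of 1.87-fold.

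In amino acid and one-carbon synthesis, 8 of 9 genes had the higher mean in high MMP cells, against 5403 of 12902 expressed genes, with a median difference of 0.08. High MMP 2 and low MMP 1 were the highest libraries for 8 of 9. The median was -0.11 without high MMP 2, -0.16 without low MMP 2, 0.25 without high MMP 1 and 0.32 without low MMP 1. None of the 9 passed the limma test. *Asns* (chr6:7675169-7693254), asparagine synthetase and a standard ATF4 target, had 8705 and 11176 normalized reads in high MMP and 11214 and 7835 in low MMP samples. Low MMP 1 and high MMP 2 were nearly equal, and the means of 9940.2 ± 1747 and 9524 ± 2389 (SD, n = 2) differed by 0.07 (SE 0.23, limma adjusted p = 0.974). The first enzymes of serine synthesis varied less. *Phgdh*, the first, had 8209.9 and 8357 in high MMP and 8269.6 and 7434 in low MMP samples, and *Psat1*, the next enzyme, had 17265 and 17538 against 16856 and 14601. The differences were 0.08 (SE 0.10) and 0.15 (SE 0.13), and for *Psat1* the groups did not overlap (17402 ± 193 and 15728 ± 1594, SD, n = 2, limma adjusted p = 0.80).

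The mitochondrial folate enzyme gene *Mthfd2* had the largest difference of the group, with 5724 and 7264 in high MMP and 6264 and 4798 in low MMP samples (0.23, SE 0.20, limma adjusted p = 0.796). *Aldh18a1*, the first enzyme of proline synthesis, had 4846 and 5913 against 5993 and 4276 (0.08, SE 0.21). *Aldh1l2*, a mitochondrial enzyme that oxidizes formyl-tetrahydrofolate, varied most in this group: 467 and 1012 in high MMP and 948 and 476 in low MMP samples, a 2.17-fold range with pair differences of -1.02 and 1.09. *Psph*, the last enzyme of serine synthesis, varied as much as *Asns*, over a 1.43-fold range, with 2602 and 3561 in high MMP and 3423 and 2490.3 in low MMP samples. *Psph*, *Shmt2* of glycine synthesis and *Pycr1* of proline synthesis had group differences between -0.0022 and 0.08.

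All 6 amino acid transporters had high MMP 2 and low MMP 1 as the 2 highest libraries. *Slc7a5*, the LAT1 subunit that exchanges large neutral amino acids, had 7474 and 10381 normalized reads in high MMP and 10318 and 7909.9 in low MMP samples. Its partner subunit *Slc3a2* (CD98) had 4782 and 7039 against 6646 and 5196. The 2 genes of this heterodimer thus showed one order of samples, and their group differences of -0.04 (SE 0.23) and -0.02 (SE 0.24) turned positive under median-of-ratios rescaling and the count-based fits. *Slc1a5*, the glutamine transporter ASCT2, had the largest difference of the group, with 2888 and 5435 in high MMP and 5893 and 4286 in low MMP samples (-0.34, SE 0.36, limma adjusted p = 0.855).

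*Slc6a9*, a glycine transporter, had 880.5 and 1912 in high MMP and 1639 and 954 in low MMP samples, a 2.17-fold range, and *Slc7a1*, a transporter of cationic amino acids, had 4869 and 8078 against 6659 and 4976. Their group differences were 0.05 (SE 0.47) and 0.12 (SE 0.30). Both had high MMP 2 as the highest library, as had 5 of the 6 transporters. High MMP 1 was the lowest library for all 6, against 37.3% of expressed genes. *Slc38a2*, a sodium-coupled neutral amino acid transporter, had a difference of -0.03. Over the 6 transporters the median difference was -0.03, which turned to 0.02 under median-of-ratios rescaling, with the higher mean in high MMP cells for 2 of 6. Their pair medians were -0.47 and 0.42, the former the lowest of the 5 function groups.

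**Figure D3:**
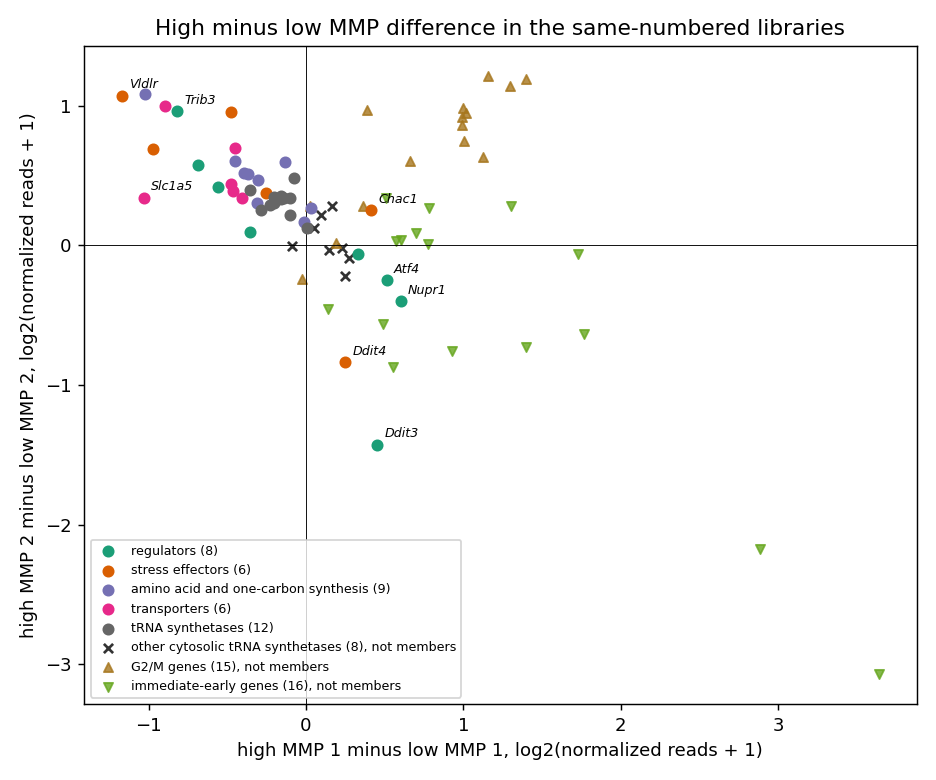
Log2 difference, high minus low MMP, between the samples numbered 1 (horizontal axis) and between those numbered 2 (vertical axis), with 1 point per gene. Colored circles show the function groups of the 41 genes. Of these 41, 33 lie to the left of 0 and above 0, 5 lie to the right and below, and 3 are positive on both axes. Other markers show genes outside the 41. They are 8 other cytosolic tRNA synthetases (crosses), 15 G2/M genes (triangles pointing up) and 16 immediate-early genes (triangles pointing down).

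The 12 tRNA synthetases varied in a narrow range. Their highest library exceeded the lowest by 1.09-fold (*Wars*) to 1.40-fold, with a median of 1.26-fold. Yet 11 of 12 had high MMP 2 and low MMP 1 highest. The mean was higher in high MMP cells for 11 of 12, against 5403 of 12902 expressed genes. Low MMP 2 was the lowest library for all 12, against 16.5% of expressed genes. The median difference over the 12 was 0.07. It was -0.06 without low MMP 2, -0.01 without high MMP 2, 0.17 without high MMP 1 and 0.23 without low MMP 1. *Tars* (chr15:11382301-11399665), for threonine, had 12843 and 15031 normalized reads in high MMP and 13528 and 10766 in low MMP samples, with means of 13937 ± 1548 and 12147 ± 1953 (SD, n = 2) and a difference of 0.20 (SE 0.17, limma adjusted p = 0.795). *Nars* (asparagine) had 15464 and 16665 against 16623 and 13141, and *Iars* (isoleucine) had 8561 and 9816 against 9425 and 7759, with differences of 0.12 (SE 0.16) and 0.10 (SE 0.15). In all 3 genes low MMP 2 was the lowest library, as in the other listed synthetases. *Wars*, for tryptophan, was the exception in the order of the 2 highest libraries. It had 3224 and 3372 in high MMP and 3209.8 and 3092 in low MMP samples, where the groups did not overlap but differed by 0.07 (SE 0.08).

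The comparison with synthetases that are not on the list shows a different order of samples. Of 8 other cytosolic synthetase genes none had high MMP 2 and low MMP 1 as the 2 highest libraries, and of 17 mitochondrial ones 2 had. Their medians in pair 1 and pair 2 were 0.16 and -0.01 for the cytosolic genes and -0.10 and -0.11 for the mitochondrial genes, against -0.16 and 0.34 for the 12 listed synthetases. A higher mean in high MMP cells was not particular to the listed synthetases. It was found in 7 of the 8 other cytosolic genes, with a median difference of 0.09, against 0.07 for the listed ones. For 3 of these 8 both high MMP samples were above both low MMP samples, against 1 of the 12. Of the mitochondrial genes, 6 of 17 had the higher mean in high MMP cells. Among the other cytosolic genes *Rars* (arginine) had 6225 and 6064 in high MMP and 5539 and 4987 in low MMP samples (0.23, SE 0.10), and *Farsb* (phenylalanine) had 2571 and 2529 against 2407 and 2175 (0.16, SE 0.09). Both high MMP samples were above both low MMP samples in these genes, and limma called neither. The promoter element was found in 0 of 5 other cytosolic and 0 of 14 mitochondrial synthetases with a window. These counts are descriptions of lists chosen with earlier results of these data known, and the difference between the lists was not tested.

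Further genes of the pathway gave a mixed order. Of 18 other ATF4 targets in the table (of 19 listed), 11 had high MMP 2 and low MMP 1 as the 2 highest libraries, their median difference was 0.06 with pair medians of -0.31 and 0.22, and 7 of 14 with a promoter window held the element. *Slc7a11*, the cystine transporter subunit, had 1712 and 2669 in high MMP and 2168 and 1324 in low MMP samples, and *Pck2*, mitochondrial PEPCK, had 2558 and 4403 against 4782 and 2996. *Fgf21*, a stress hormone, had the largest difference of that list (0.85, SE 0.96) but only 4 to 35 reads per library. *Atf3*, a stress-induced repressor, ran the other way, with 1934 and 490 in high MMP and 377 and 1515 in low MMP samples, a 5.12-fold range. *Klhl24* had 300 and 240 against 334 and 364 (-0.38, SE 0.15, limma adjusted p = 0.537).

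Upstream of ATF4, the 18 genes for eIF2 kinases, eIF2B subunits and related factors had a median difference of -0.04 (0.0037 under median-of-ratios rescaling), with pair medians of -0.01 and -0.05, and 3 of 18 had high MMP 2 and low MMP 1 highest. *Impact*, an inhibitor of the kinase GCN2, had 531 and 536 in high MMP and 585 and 674 in low MMP samples (-0.23, SE 0.10). *Eif2b3*, a subunit of the eIF2 exchange factor, had 1050 and 1028 against 935 and 868 (0.21, SE 0.08, limma adjusted p = 0.542). These are mRNA levels, and phosphorylation of eIF2 was not measured.

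The ATF6 and IRE1 targets, which belong to the other arms of the unfolded protein response, had a lower mean in high MMP cells for 12 of 12 genes, against 7499 of 12902 expressed genes. Their median difference was -0.18, with pair medians of -0.21 and -0.22. For 8 of the 12 both high MMP samples were below both low MMP samples, against 23.7% of expressed genes. Limma passed 1 at an unadjusted p under 0.05, and limma, edgeR, edgeR with the block and DESeq2 called none. The crossed edgeR fit called 1. *Dnajb9*, a chaperone of the endoplasmic reticulum, had 277 and 208 in high MMP and 315 and 413 in low MMP samples (-0.58, SE 0.22, limma adjusted p = 0.505). *Hspa5* (BiP), the main chaperone there, had 23254 and 32652 against 32907 and 36635 (-0.33, SE 0.22). High MMP 2 and low MMP 1 were the 2 highest libraries for 1 of the 12 genes.

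**Figure D4:**
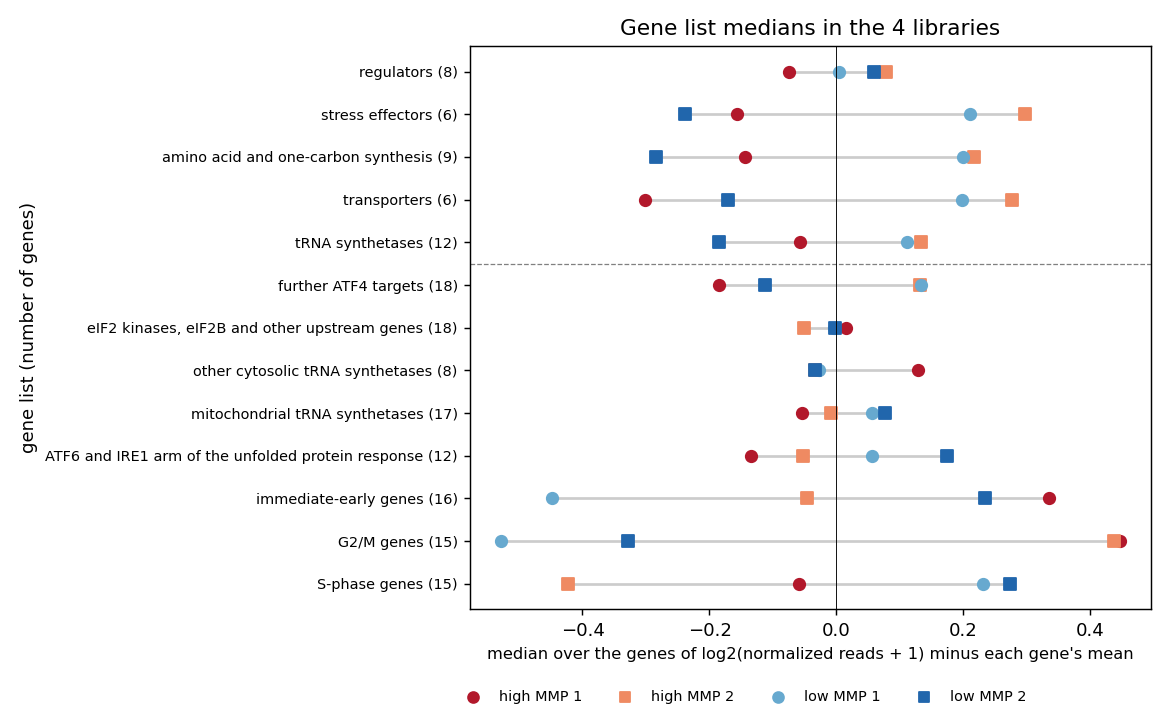
Median level of each gene list in each library, as log2(normalized reads + 1) minus each gene's mean over the 4 libraries, for the 5 function groups and the comparison lists. The ATF4 groups other than the regulators are high in high MMP 2 and low MMP 1, the immediate-early genes are lowest in low MMP 1, and the G2/M and S-phase lists separate by MMP group.

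Immediate-early genes, which cells induce within minutes of growth factor or stress signals, were set beside these results. Of 16 such genes, 9 had high MMP 1 and low MMP 2 as the 2 highest libraries, the order of *Atf4* and *Ddit3*. In the other 7 both high MMP samples were above both low MMP samples, and none had the order of the 33 genes. The list was chosen with earlier results of these data known, so these counts are no independent evidence. *Fos* had 2419 and 521 in high MMP and 326 and 2357 in low MMP samples, and *Fosb* had 4855 and 601 against 389 and 5063. Cell cycle genes followed the sort instead: both high MMP samples were above both low MMP samples for 14 of 15 G2/M genes, with a median difference of 0.88, and below them for 14 of 15 S-phase genes, with a median of -0.46. Across expressed genes the shares with high above and high below low MMP were 14.3% and 23.7%. The part of the immediate-early or cell cycle genes in the order of the ATF4 genes was not tested.

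Compared per length, in mean normalized reads per kb of exon, *Shmt2* (4885), *Psat1* (3894), *Atf4* (3596), *Asns* (3558) and *Nars* (3553) stood highest of the 41 genes, while *Pycr1* (97.8), *Aldh1l2* (96.7), *Ddit3* (90.6) and *Vldlr* (60.0) stood lowest. *Trib3* and *Chac1* lay between, at 1032 and 972. Exons of 13 of the 41 genes overlap a gene on the opposite strand, *Ddit3* and *Mars1* overlapping each other, and 3 overlap a gene on the same strand. The library kit keeps strand, but the strand setting of the counting is not given in the sources used here. Values of overlapping genes may therefore share or lose reads. *Phgdh* has a named pseudogene in the table, *Phgdh-ps*, with which its reads could be split.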

How the data were processed

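RNA-seq was analysed for all 4 samples, grouped by their titles. The authors aligned reads to the mouse transcriptome (GRCm38/mm10) with STAR, and the submitters' processing notes also name HTSeq. Versions, and the handling of strand and of multi-mapping reads, are not given in the sources used here. The deposited values are a normalized signal per gene: read counts scaled to the library total, with genes above 0 in fewer than 2 libraries removed. The table held 0 columns of no sample. Each column was a whole multiple of 1 step, which gave back whole reads (within 0.01 reads) for 100.0% of values. The count tests on these reads called 0 genes (edgeR) and 118 genes (DESeq2).

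Symbols and positions came from GENCODE M21 (19993 of 20197 identifiers), and promoter windows from RefSeq (the sequence of 1 match is not reported here). log2(value + 1) was tested with limma 3.58.1 in R 4.3.3 (variance trend, high against low MMP, all genes, Benjamini-Hochberg adjustment, threshold 0.05), a scale that understates folds of low genes. edgeR 4.0.16 (quasi-likelihood) and DESeq2 1.42.0, a block on sample number, other pseudocounts, filters on the mean, other scalings and each left-out sample were alternatives. When tested on simulated data, limma recovered sizes and directions but made no calls with 2 samples per group, so the count-based results stand beside it.

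The genes and lists were chosen with earlier results of these data known. Named in full were *Atf4*, *Atf5*, *Ddit3*, *Trib3*, *Chac1*, *Asns*, *Psat1*, *Phgdh*, *Slc7a5* and *Slc3a2*, any member with an unadjusted limma p under 0.05, the 3 members per function group with the largest absolute log2 difference and at most 2 genes per comparison list. The replicates of a group differed by more than sampling noise (chi-square per gene 48.4 for high and 10.1 for low MMP), so none was a repeat of another library. Deviations of same-numbered samples correlated at -0.414 across genes averaging 10 or more and at -0.913 across the members. The planned limma test had no block, and fits with the sample number as a block were alternatives.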

Additional observations from a re-analysis of the deposited data

How the results depend on the processing

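Each group had 2 samples, and every member had at least 94 reads in each library. No member was called except in the crossed pairing below. The number of members with an unadjusted p under 0.05, 0 as reported, was 1 with a pseudocount of 10, a mean of at least 1 or of at least 10, median-of-ratios rescaling, edgeR or DESeq2, and 0 to 2 when each sample was left out. Over all genes, 0 as reported, edgeR with the replicate block called 106 and DESeq2 118, while limma with that block called none. A crossed pairing, chosen after seeing the data, gave 733 calls with edgeR, 1 of them a member, with 6 members at an unadjusted p under 0.05, and 2 such members with limma. The median of the mitochondrial synthetases, -0.11, was -0.070 with rescaling, -0.074 with edgeR, -0.074 with edgeR and the block, -0.070 with DESeq2 and -0.060 with quantile normalization. That of the S-phase genes, -0.46, was -0.42, -0.41, -0.42 and -0.41 in the same order and -0.49 with quantile normalization, and that of the fibroblast markers, -0.11, was -0.88 with a mean of at least 10. When each sample was left out, the median over the members was -0.10 without high MMP 2, -0.14 without low MMP 2, 0.19 without high MMP 1 and 0.23 without low MMP 1. It ran from -0.16 to 0.079 for regulators, -0.14 to 0.32 for stress effectors, -0.16 to 0.32 for synthesis enzymes, -0.31 to 0.26 for transporters, -0.06 to 0.23 for the listed synthetases, -0.020 to 0.19 for other cytosolic and -0.13 to -0.09 for mitochondrial synthetases, -0.21 to 0.16 for further ATF4 targets, -0.07 to 0.02 for upstream genes, -0.29 to -0.13 for ATF6 and IRE1 targets, -0.03 to 0.60 for immediate-early genes, 0.76 to 0.99 for G2/M genes, -0.67 to -0.30 for S-phase genes, -0.27 to 0.19 for epithelial markers, -0.61 to 0.31 for fibroblast markers, -0.40 to 0.66 for endothelial markers and -0.42 to 0.78 for leukocyte markers. Of the 21 members named by rule, 15 turned sign in at least 1 of these fits, and 2, *Slc7a5* and *Slc3a2*, in the other alternatives. The cause was not tested.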

Other observations

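The immediate-early genes also held calls in some fits. *Egr2*, a zinc finger transcription factor, had 246 and 207 normalized reads in high MMP and 99.4 and 170 in low MMP samples, a log2 difference of 0.79 (SE 0.30). *Btg2*, an antiproliferative gene, had 436 and 275 against 131 and 287, a difference of 0.84 (SE 0.46). With the replicate block, edgeR called both (adjusted p = 0.0466 and 0.0129), as it did 0.525% of all genes. Same-numbered samples deviated in opposite directions, but with 2 samples per group this cannot tell which pairing holds. Limma, edgeR without the block and DESeq2 called none of the 16 genes, and edgeR with the crossed pairing, chosen after seeing the data, called 9. Over the 16 genes, 13 had the higher mean in high MMP cells, with a median difference of 0.34 and pair medians of 0.78 and -0.26.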
